A study of Mus musculus with 70 samples.

Results

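Spp1, the gene of osteopontin, and 8 genes of the receptors that bind it were followed through mouse liver and sorted liver macrophages in diet-induced steatohepatitis. The 9 genes, Spp1, Cd44, Itgav, Itgb1, Itgb3, Itgb5, Itga4, Itga5 and Itga9, were chosen by their symbols. They are 9 of the 23839 genes in the table of male liver and of the 24982 genes in each of the tables of female liver and of macrophages. All 9 passed the filter on low counts in every fit.

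Poly(A) RNA was sequenced from resident macrophages of the liver, gated by sorting as F4/80high CD11blow cells, and from total liver of mice kept for 24 weeks on a NASH diet or a control diet. KI mice carry the genotype labelled OpnKI Mye, by its name an osteopontin knock-in for myeloid cells, and the WT mice set against them are labelled Lyz2.Cre+/+. Lyz2-driven Cre acts in myeloid cells, which include monocytes and neutrophils as well as macrophages. The labels describe neither the inserted construct nor the diets nor the age of the mice, and do not say whether KI mice carry the Cre allele, so reads of an inserted copy and of the resident Spp1 gene cannot be told apart. By their labels, the macrophage libraries number 5 of KI and 5 of WT males and 6 of KI and 6 of WT females on the NASH diet, and 4 of each genotype and sex on the control diet. Liver groups hold 4 libraries each, except male WT control, where n = 3.

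Osteopontin is a secreted phosphoprotein of matrix and body fluids that serves as an adhesion protein and a cytokine. CD44, the hyaluronan receptor, binds it apart from the integrins. Integrins are pairs of an alpha and a beta chain: alpha v pairs with beta 1, beta 3 or beta 5 and reads the RGD motif of osteopontin, alpha 5 beta 1 reads it as well, and alpha 4 beta 1 and alpha 9 beta 1 read a second site beside it that thrombin cleavage exposes. In liver, Spp1 is known from bile duct cells, activated stellate cells and lipid-associated macrophages.

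The integrin-binding stretch is shown because all the integrins described here read the protein within it. It lies in exon 6 of the 7 exons of transcript Spp1-201, on the plus strand at chr5:104439463-104439522 of GRCm38 (mm10, GENCODE M21). Capitals mark codons 144 to 146, which encode RGD, and the directly adjoining codons 147 to 153 of the second site.
Spp1 integrin sites: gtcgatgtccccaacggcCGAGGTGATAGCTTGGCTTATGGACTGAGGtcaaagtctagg
RGD is encoded 1 time in the 294 codons of this transcript. Counts are given per gene symbol and do not separate forms of the protein or its cleavage.

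Total counts per library ranged from 16512356 to 26244679 in macrophages and from 14321776 to 29966174 in liver. The sum of 6 Kupffer cell marker genes was 12280 to 33290 CPM (counts scaled to a common library total) in macrophage libraries and 187 to 662 CPM in liver. That of 5 hepatocyte genes was 21.7 to 2271 CPM in macrophages and 74750 to 153200 CPM in liver. Replicates 3 and 4 of the male WT control livers differed by less than sampling noise, and they were counted as 1 averaged library, called 3-4. That library and macrophage male WT control replicate 4 have the sex genes of females, and Lyz2, the locus that carries Cre, was below 500 CPM in 10 of the 38 macrophage libraries. Values without these libraries are given where they change a result. Lyz2 varied in liver too, where no library was left out for it. Female WT livers had 1.05 to 2.58 CPM, and female KI livers 19.9 to 43.4 CPM on control and 1.255 to 68.95 CPM on NASH. Male WT livers had 139.3 to 310.5 CPM on NASH, against 1.10 to 54.85 CPM in KI. The part of what Lyz2 tracks in the liver KI minus WT differences was not tested.

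Of the 8 receptor genes 7 were higher in sorted macrophages than in total liver in each sex, all but Itgb3, and Spp1 was lower when groups were pooled within a sex. In KI males on NASH alone the Spp1 means stood the other way, at 101 CPM in macrophages and 37.6 CPM in liver. The genes are compared here by CPM per kb of exonic length. That length merges all annotated exons of a gene, such as 3553 bp for Itgb5 and 13978 bp for Itga4, and the order of genes depends on it. In macrophages the median over 38 libraries was 189 CPM per kb for Itgb5 (beta 5), 167 for Itgb1 (beta 1, the partner of alpha 4, 5 and 9), 138 for Cd44 and 101 for Itga9 (alpha 9). Itgav (alpha v) stood at 17.8, Itga4 (alpha 4) at 14.2, Itga5 (alpha 5) at 13.8, Spp1 at 3.62 and Itgb3 (beta 3) at 0.519 CPM per kb. By these pooled medians beta 5 and beta 1 RNA were more abundant per length than each alpha chain among the 9 genes. In CPM not divided by length, the median of Itga9 (776) stood above those of Itgb1 (683) and Itgb5 (672). Per length, beta 3 RNA was the scarcest of the 9. In WT control macrophages Spp1 was scarcer still. Its means there were 0.221 CPM per kb in males and 0.0627 in females, against 0.405 and 0.574 for Itgb3.

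In total liver the medians over 31 libraries were 51.7 CPM per kb for Itgb1, 21.4 for Itgb5, 17.2 for Spp1, 4.34 for Itga5, 4.08 for Itga9, 3.02 for Itgav, 2.65 for Cd44, 1.10 for Itgb3 and 0.555 for Itga4. In the fit of males, macrophages minus liver, 7 of the 9 genes were higher and 1 lower in macrophages, where 90.1% of all genes tested passed, and in females 7 were higher and 2 lower, where 91.7% passed. A share this close to the background is no result about these genes. The log2 fold change in males and in females was 5.44 and 5.10 for Cd44, 4.67 and 3.97 for Itga4, and 4.52 and 3.86 for Itga9. Those for Itgb5, Itgav, Itga5 and Itgb1 lay between 1.09 and 2.93. Spp1 fell by 2.92 in males and by 4.56 in females on the log2 scale. Itgb3 fell by 2.48 in females, and in males it stood at -0.15 (adjusted p = 0.636). Tissue and RNA isolation kit cannot be told apart in these differences.

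**Figure D1:**
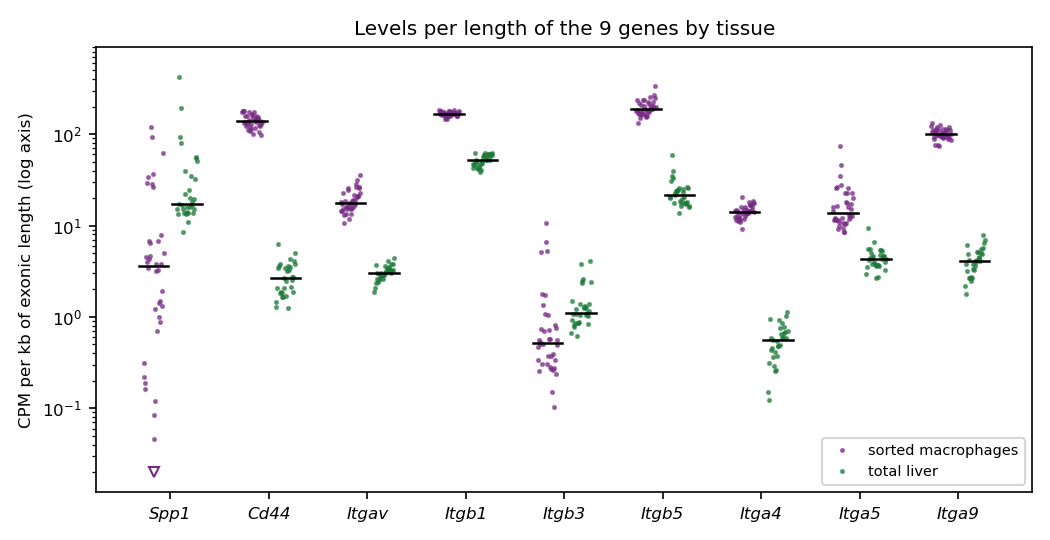
Level of each of the 9 genes in CPM per kb of exonic length (log axis), with 1 point per library of sorted macrophages (38) and total liver (31) and a line at the median; the open triangle is a library with 0 counts. Cd44, Itga4 and Itga9 separate the tissues most, with macrophage medians of 138, 14.2 and 101 CPM per kb, and Spp1 spans 0 to 121 CPM per kb in macrophages.

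Spp1 had few reads in macrophages of WT mice on the control diet, and it was higher on the NASH diet in WT mice of each sex and in KI males. Macrophages of WT males held 7.44, 48.3, 6.57, 55.9 and 5.72 CPM on the NASH diet, against 0.358, 0.516, 0.268 and 0.315 CPM on the control diet, counts of 6 to 12 reads per library. Every NASH library lay above every control library, and replicates 2 and 4 stood far above the other NASH libraries. The log2 fold change was 5.95 ± 0.96 (SE), with an adjusted p of 0.00772. In this comparison 2 of the 9 genes passed, 1 higher and 1 lower, where 8.19% of all genes did.

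Spp1 also rose with the diet in KI males. Their macrophages held 199, 155, 47.3, 59.9 and 43.7 CPM on the NASH diet, against 7.12, 11.3, 7.73 and 10.7 CPM on the control diet. The groups did not overlap and Spp1 rose by a log2 fold change of 3.43 ± 0.73 (adjusted p = 0.0034). The Kupffer cell markers summed to 12280 to 27320 CPM on NASH, against 27720 to 29640 CPM on control, the 5 lipid-associated macrophage markers to 1499 to 5069 CPM, against 834 to 1306 CPM, and the 4 monocyte and neutrophil markers to 14.7 to 96.6 CPM, against 1.95 to 7.12 CPM. None was at 0 throughout a group, and their part in the rise was not tested. Here 3 of the 9 genes were higher and none lower, where 24% of all genes passed. The diet effect in KI minus that in WT was -2.52 ± 1.17 (adjusted p = 0.401). In that interaction edgeR called 0 of the 9 genes and 0% of all genes, 2 of the 9 were at an unadjusted p under 0.05, with DESeq2 calling 0 of the 9, and of all genes 1595 were at such a p and 250 were called by DESeq2.

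In WT females Spp1 rose with the diet as well. Macrophages of WT females on the NASH diet had 1.15 CPM at the lowest, a median of 5.37 and 11.1 CPM at the highest of 6 libraries, against 0.0762, 0, 0.138 and 0.199 CPM on the control diet, where the counts were 2, 0, 3 and 4 reads. A count of 0 in that library allows up to 0.175 CPM. All NASH libraries lay above all control libraries, the log2 fold change was 5.61 ± 1.36 (adjusted p = 0.0148), and its size depends on those few reads. With it 2 of the 9 genes were higher, where 12.9% of all genes passed. Without the libraries of low Lyz2 the control group shrinks to the library with no read, and the adjusted p was 0.42.

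Macrophages of KI females had 2.17 CPM at the lowest, a median of 7.20 and 102 CPM at the highest of 6 libraries on the NASH diet, against 2.34, 1.65, 1.43 and 2.47 CPM on the control diet. The groups overlapped, and replicate 5, at 102 CPM, was far from the next library at 12.8 CPM. The log2 fold change of 3.46 ± 0.95 missed the threshold (adjusted p = 0.0562) and was 1.75 without replicate 5. It was called when replicate 3 or replicate 4 was left out, the libraries with the least Spp1, 3.19 and 2.17 CPM. Both had low Lyz2, 44.1 and 43.3 CPM, and the part of what Lyz2 tracks was not tested. In this comparison edgeR called 0 of the 9 genes where 2.31% of all genes passed, with DESeq2 calling 1, Spp1. At an unadjusted p under 0.05 were 2 of the 9 and 2511 of the 12838 genes tested. The diet effect in KI minus that in WT was -2.15 ± 1.74 (adjusted p = 0.772). There 0 of the 9 genes passed with edgeR and 0 with DESeq2, where 0.288% of all genes passed with edgeR. An unadjusted p under 0.05 was held by 3 of the 9 and by 1178 of the 12838 genes tested.

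On the control diet KI macrophages held more Spp1 than WT macrophages in every library, without passing over all genes with edgeR. Each KI library lay above all WT libraries of its sex. KI males had 7.12 to 11.3 CPM, against 0.268 to 0.516 CPM in WT males, and KI females had 1.43 to 2.47 CPM, against 0 to 0.199 CPM in WT females. The fits gave log2 fold changes of 4.56 ± 0.97 in males (unadjusted p = 0.000221, adjusted p = 0.635) and 4.16 ± 1.47 in females (adjusted p = 0.105). An exact two-sided permutation test on log2(CPM + 0.1) gave p = 0.0286 in each sex, the smallest that 4 against 4 libraries allow, and 0.0572 after adjustment over the 16 comparisons of Spp1 tested that way. Among KI females on the control diet the library with Lyz2 above 500 CPM, replicate 4, had 2.47 CPM and those below had 1.43 to 2.34 CPM.

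In this comparison in males edgeR called 0 of the 9 genes and 0% of all genes, with 862 genes at an unadjusted p under 0.05. DESeq2 called 5 of all genes, 1 of the 9 being Spp1, and 3 of the 9 had an unadjusted p under 0.05. In females 1 of the 9 genes was higher with edgeR, Itgav, where 4.64% of all genes passed. DESeq2 called 1163 of all genes and 3 of the 9, all higher, Spp1 among them (adjusted p = 0.00333). At an unadjusted p under 0.05 were 5 of the 9 and 2762 of the 12838 genes tested.

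On the NASH diet KI and WT macrophages overlapped in Spp1. KI males had 43.7 to 199 CPM and WT males 5.72 to 55.9 CPM, with 3 KI libraries above all WT libraries, and the log2 fold change was 2.05 ± 0.62 (adjusted p = 0.089). KI females had 2.17 to 102 CPM and WT females 1.15 to 11.1 CPM, with a log2 fold change of 2.01 ± 0.75 (adjusted p = 0.161) that was 0.28 without KI replicate 5. With edgeR 0 of the 9 genes passed in males, where 3.13% of all genes did, and 0 in females, where 0.561% did. At an unadjusted p under 0.05 the counts of the 9 were 3 and 3, and those of all genes 2203 of 13036 and 2377 of 12838. With DESeq2 the counts of the 9 were 2 and 1, Spp1 and Itga5 in males and Itgav in females.

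Several NASH libraries high in Spp1 also stood apart in macrophage markers. In KI males replicates 1 and 2, with 199 and 155 CPM of Spp1, had 5069 and 4758 CPM of the summed lipid-associated macrophage markers, against 1499 to 3738 CPM in the other 3. In WT males replicates 2 and 4, the libraries with 48.3 and 55.9 CPM of Spp1, had Gpnmb (a lysosomal glycoprotein of lipid-associated macrophages) at 599 and 899 CPM, against 13.5 to 69.7 CPM in the other 3. The summed lipid-associated macrophage markers, 5 of 5 detected, were 4098 and 4081 CPM there and 1347 to 1826 CPM in the others, and the summed Kupffer cell markers 19660 and 19210 CPM against 24800 to 31270 CPM. KI female replicate 5 had 667 CPM of Gpnmb, 3646 CPM of the lipid-associated and 16790 CPM of the Kupffer cell markers, and 104 CPM of the 4 monocyte and neutrophil markers, where its group's median was 25.5 CPM. The part of such cells in the Spp1 differences was not tested.

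Ordered by group mean, macrophage Spp1 was 101 ± 71.2 CPM in KI males on NASH, 24.8 ± 25.1 in WT males on NASH, 22.5 ± 39.3 in KI females on NASH, 9.19 ± 2.07 in KI males on control, 5.21 ± 3.52 in WT females on NASH, 1.97 ± 0.511 in KI females on control, 0.364 ± 0.108 in WT males on control and 0.103 ± 0.0852 in WT females on control (SD). Each of the first 6 overlapped with its neighbours among them in this order. The step below KI females on control and the step between the WT control groups had no overlap. The latter step rests on 6 to 12 against 0 to 4 reads per library and was not tested. Male WT control replicate 4, at 0.315 CPM, has the sex genes of females. The female minus male difference of the WT diet effect was -0.36 ± 2.82 (adjusted p = 0.963) and that of the KI effect on NASH -0.03 ± 1.02 (adjusted p = 0.995), which was -1.75 without female KI NASH replicate 5.

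**Figure D2:**
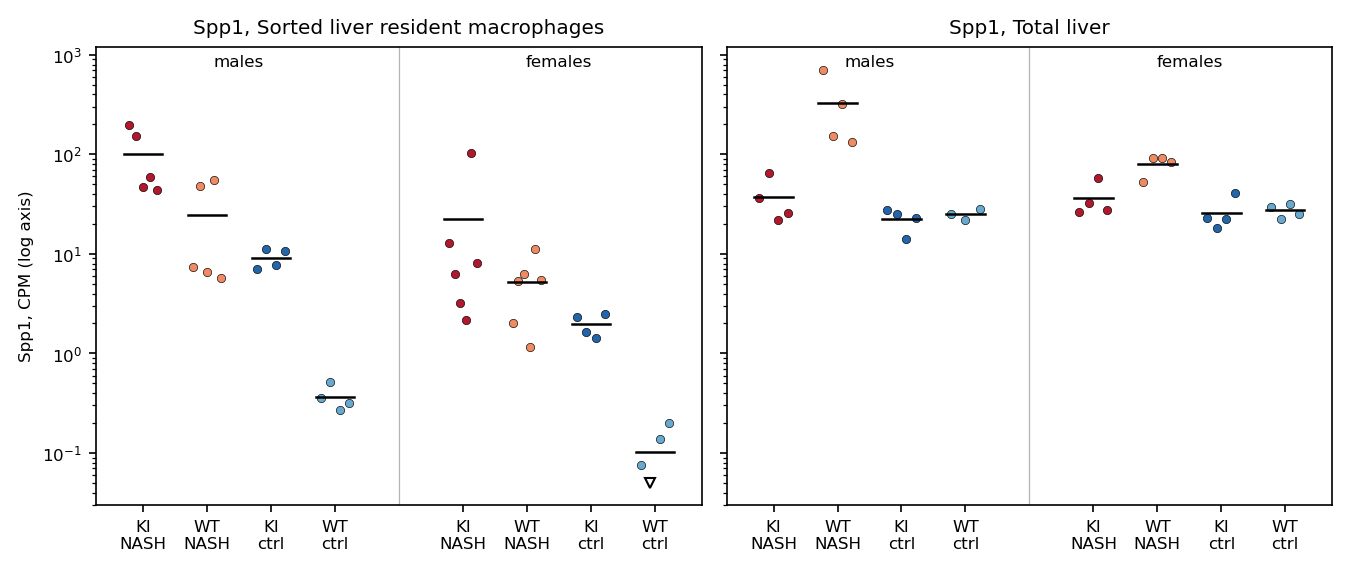
Spp1 in CPM (log axis) in sorted macrophages (left) and total liver (right) by sex, genotype and diet (ctrl, control diet); points are libraries, lines are group means and the open triangle is a library with 0 counts. Macrophage Spp1 is lowest in WT control libraries (0.268 to 0.516 CPM in males, 0 to 0.199 CPM in females), while in liver the highest values, 133 to 698 CPM, are those of WT males on the NASH diet.

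Among the receptor genes of macrophages, Itga5 and Itgb3 varied most and Itgb1 least. Itgb1 lay between 594 and 752 CPM in all 38 libraries, with a coefficient of variation of 5.66%, and passed in none of the 20 comparisons within a tissue and sex. Over those comparisons the 8 receptor genes passed 14 of 160 times, 9 times higher and 5 times lower. That is 8.75%, where 7.05% of the tests of all genes passed over the same comparisons, a share near the background. Spp1 passed 5 of 20 times.

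Itga5, the alpha chain of the classical fibronectin receptor, rose with the NASH diet in KI males. It was at 363, 171, 136, 225 and 59.1 CPM on NASH, against 56.2, 45.1, 54.1 and 48.7 CPM on control. In CPM every NASH library was above every control library, though replicate 5 only narrowly, and the log2 fold change was 1.89 ± 0.40 (adjusted p = 0.00344). Replicate 5 was also the library with the fewest lipid-associated macrophage markers of its group, 1499 CPM against 2680 to 5069 CPM in the other 4.

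In WT males Itga5 was 59.2, 127, 56.9, 131 and 80.4 CPM on NASH, against 79.7, 72.0, 57.4 and 58.5 CPM on control, with overlap (log2 fold change 0.34, adjusted p = 0.621). The 2 highest were again replicates 2 and 4. The KI minus WT difference on NASH was 1.09 (adjusted p = 0.121), and without KI replicate 5, when it was called, 1.30.

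In WT females Itga5 ranged from 51.1 to 113 CPM with a median of 88.3 on NASH, against 46.3, 52.9, 42.4 and 41.4 CPM on control. The groups overlapped, NASH replicates 2 and 4 lying below the highest control library, and the log2 fold change was 0.94 ± 0.27 (adjusted p = 0.0288). The call was lost without any 1 of the 4 control libraries or of WT NASH replicates 1 and 5, with log2 fold changes of 0.84 to 1.07 over all libraries left out. It was also lost under the replicate block (0.76, adjusted p = 0.0693) and without the low-Lyz2 libraries (0.71, adjusted p = 0.572).

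Itgb3, the beta chain that with alpha v forms the vitronectin receptor, rose in KI males on the NASH diet. The values were 10.3, 6.39, 62.2, 39.3 and 31.3 CPM on NASH, against 1.78, 7.87, 3.01 and 4.12 CPM on control. Replicates 3, 4 and 5 stood far above all control libraries, while replicate 2 lay within them. The log2 fold change was 2.79 ± 0.77 (adjusted p = 0.015), and 2.63 (adjusted p = 0.0577) without the low-Lyz2 libraries.

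WT males had 2.96, 3.12, 4.40, 30.6 and 10.6 CPM of Itgb3 on NASH, against 2.77, 1.98, 1.52 and 3.31 CPM on control (log2 fold change 2.01, adjusted p = 0.111, and 1.10 without NASH replicate 4). Of the libraries high in Itgb3, KI NASH replicates 3, 4 and 5 had the least Spp1 of their group, and WT NASH replicate 4 the most of its group. KI NASH replicates 3, 4 and 5 and WT NASH replicates 4 and 5 were high in Clec4g, a lectin of sinusoidal endothelial cells. Clec4g was 429, 365 and 305 CPM in those of KI and 289 and 321 CPM in those of WT. The other male NASH libraries had 77.2 to 158 CPM. Among these others, KI NASH replicate 1 had 10.3 CPM of Itgb3, near the 10.6 CPM of WT NASH replicate 5, so Itgb3 does not split the libraries cleanly. The 4 summed sinusoidal endothelial markers, all detected, were 1763 to 2180 CPM in those 5 libraries and 686 to 1118 CPM in the other 5. Itga2b, the platelet partner of beta 3, was at 0.629 to 2.69 CPM in all 10. The part of endothelial RNA in the Itgb3 values was not tested. Macrophages of females, in every group, had 0.614 to 6.16 CPM of Itgb3.

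Itgav, the chain shared by the RGD-binding alpha v receptors, was higher in KI than in WT females on the control diet. KI libraries had 309, 285, 222 and 338 CPM, against 185, 163, 144 and 165 CPM in WT. The groups did not overlap and the log2 fold change was 0.81 ± 0.14 (adjusted p = 0.00337). It remained called when each library was left out in turn, at 0.75 to 0.92, but only 1 library a group has high Lyz2, and without the others it was 0.98 with an adjusted p of 0.416. KI males on the control diet had 144, 172, 162 and 171 CPM, against 155, 194, 156 and 184 CPM in WT males (log2 fold change -0.14, adjusted p = 0.966).

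Cd44 lay between 656 and 1228 CPM in all macrophage libraries. In WT males it was 892, 1064, 914, 838 and 886 CPM on NASH, against 1196, 1212, 1228 and 1217 CPM on control, and it fell by 0.50 ± 0.14 on the log2 scale (adjusted p = 0.0391), with no overlap. The call was lost without any 1 of 9 libraries (WT control replicates 1 to 4, WT NASH replicates 1, 4 and 5, KI control replicates 3 and 4), with log2 fold changes of -0.55 to -0.44. It was also lost with library totals in place of TMM (-0.40, adjusted p = 0.059), with no filter (-0.47, adjusted p = 0.0712), without the library of contradicting sex genes (-0.51, adjusted p = 0.0743) and without the low-Lyz2 libraries (-0.47, adjusted p = 0.122). Itgb5, Itga4 and Itga9 passed in none of the macrophage comparisons with edgeR. DESeq2 called Itgb5 in WT females on NASH against control (0.40, adjusted p = 0.0287), and the replicate block called Itga9 in WT males (-0.50, adjusted p = 0.0348).

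The female minus male difference of the WT diet effect was called for 0 of the 9 genes with edgeR and with DESeq2. Of all genes 0.0224% passed with edgeR. An unadjusted p under 0.05 was held by 5 of the 9 and by 2281 of the 13373 genes tested. For the KI effect under NASH feeding, 0 of the 9 were called with either tool, where 4.37% of all genes passed. There 1 of the 9 and 1989 of all genes had an unadjusted p under 0.05.

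**Figure D3:**
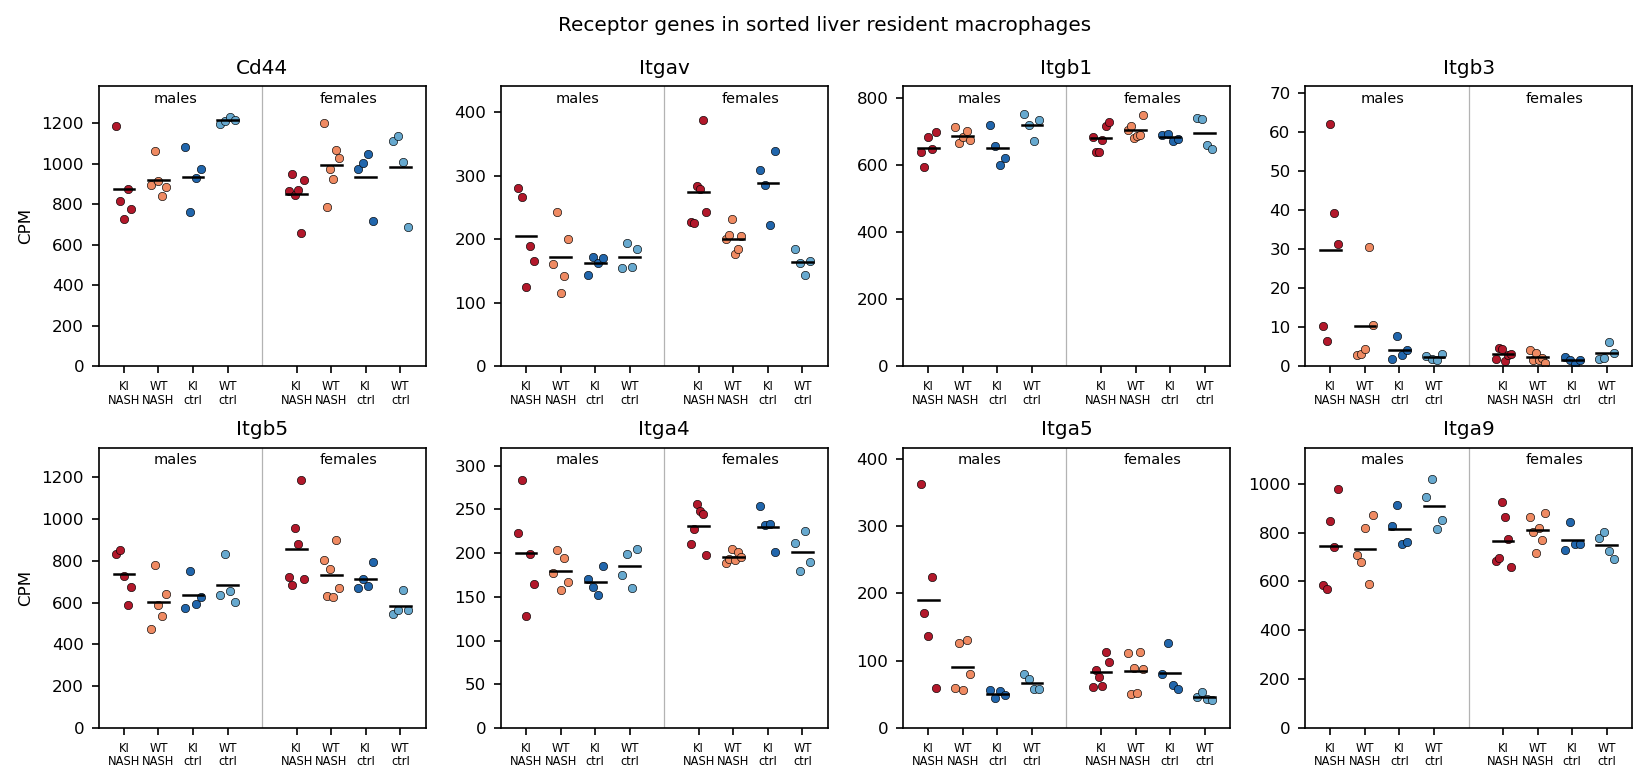
The 8 receptor genes in sorted macrophages, in CPM from 0, by sex, genotype and diet (ctrl, control diet); points are libraries and lines are group means. Itga5 reaches 363 CPM and Itgb3 62.2 CPM in KI males on the NASH diet, while Itgb1 stays between 594 and 752 CPM in all groups.

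In total liver, Spp1 rose with the NASH diet in WT males and was far lower in KI than in WT males on that diet. In bulk tissue, fewer cells of a type and less RNA per cell cannot be told apart. Livers of WT males held 698, 154, 322 and 133 CPM on NASH, against 25.1, 22.1 and 28.4 CPM on control. Every NASH liver lay above every control liver and the log2 fold change was 3.38 ± 0.52 (adjusted p = 0.00135), and 2.77 without NASH replicate 1.

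That replicate also stood apart in markers. The 4 cholangiocyte markers summed to 74.4 CPM in it and to 8.94, 21.0 and 10.4 CPM in the other WT NASH livers, with Krt19 at 19.6 CPM against 1.53 to 3.75 CPM. The 5 stellate cell markers summed to 917 CPM in it and 410 to 605 CPM in the others. No marker of either list was at 0 throughout the group, and their part in the Spp1 values was not tested.

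KI males had 36.6, 65.8, 22.2 and 26.0 CPM of liver Spp1 on NASH, against 27.8, 24.9, 14.1 and 22.9 CPM on control. The groups overlapped (log2 fold change 0.72, adjusted p = 0.881). On the NASH diet the KI livers, at 22.2 to 65.8 CPM, all lay below the WT livers, at 133 to 698 CPM, and Spp1 was lower by 2.89 ± 0.45 on the log2 scale in KI (-2.89, adjusted p = 0.000438). This is the reverse of the order of means in macrophages of the same sex and diet, where KI averaged 101 CPM and WT 24.8 CPM. The macrophage groups overlapped, and that difference was not called (log2 fold change 2.05, adjusted p = 0.089).

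The diet effect in KI minus that in WT was -2.66 ± 0.65 in male liver and missed the threshold (adjusted p = 0.067). It was -2.06 without WT NASH replicate 1. With edgeR 0 of the 9 genes passed this interaction, where 1.13% of all genes did, and DESeq2 called 1, Spp1. At an unadjusted p under 0.05 were 3 of the 9 and 2602 of the 12988 genes tested. On the control diet the KI and WT livers overlapped in Spp1 (log2 fold change -0.23, adjusted p = 0.814).

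In the same male livers, KI against WT on NASH, the 5 summed stellate cell markers were 192 to 247 CPM in KI, against 410 to 917 CPM in WT, and the cholangiocyte markers 4.70 to 8.79 CPM in KI, against 8.94 to 74.4 CPM in WT. Gpnmb was 0.134 to 0.866 CPM in KI, against 15.7 to 59.6 CPM in WT, and Trem2, a lipid receptor of lipid-associated macrophages, 0.418 to 1.93 CPM in KI, against 8.58 to 16.8 CPM in WT. The 5 lipid-associated macrophage markers together overlapped: their sum was 133 to 205 CPM for KI livers, against 151 to 704 CPM for WT livers, and male WT control livers had 313 to 428 CPM. No stellate or cholangiocyte marker was at 0 throughout a group, and the part of these cells in the Spp1 difference was not tested.

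Female livers showed smaller differences. WT females had 53.4, 91.5, 92.8 and 84.3 CPM of Spp1 on NASH, against 29.9, 22.5, 32.0 and 25.0 CPM on control. The groups did not overlap, and the log2 fold change of 1.55 ± 0.29 lay just short of the threshold (adjusted p = 0.0577). In this comparison edgeR called 0 of the 9 genes where 0.0526% of all genes passed, with DESeq2 calling 3, Spp1, Itgb3 and Itga9, all higher. At an unadjusted p under 0.05 were 3 of the 9 and 1829 of the 13315 genes tested.

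KI females had 26.6, 32.8, 58.0 and 27.5 CPM of Spp1 on NASH, against 22.9, 18.1, 22.4 and 40.8 CPM on control, with overlap (log2 fold change 0.24, adjusted p = 0.63). On NASH 3 of the 4 KI livers lay below all WT livers, and the KI minus WT log2 fold change was -1.22 ± 0.28 (adjusted p = 0.158). There edgeR called 0 of the 9 genes where 0.0901% of all genes passed, with DESeq2 calling 2, Spp1 and Itga9, both lower. At an unadjusted p under 0.05 were 3 of the 9 and 1728 of the 13315 genes tested. The diet effect in KI minus that in WT was -1.31 ± 0.40 for Spp1 (adjusted p = 0.0711).

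For liver Spp1 the KI effect under NASH feeding differed between the sexes, female minus male, by 1.64 ± 0.53 (adjusted p = 0.0381), the KI effect being -1.22 in females and -2.89 in males. The call was lost without any 1 of 8 libraries (male WT NASH replicates 1 and 3, male KI NASH replicates 1, 3 and 4, female KI NASH replicate 3, female WT NASH replicates 1 and 4), with values of 1.07 to 2.05 over the 31 left out, and under the replicate block (1.57, adjusted p = 0.0662). In this comparison 2 of the 9 genes were higher and 1 lower, where 14% of all genes passed. That of the WT diet effect was -1.78 ± 0.56 (adjusted p = 0.0961), with 0 of the 9 genes passing where 1.68% of all genes did. DESeq2 called 2, Spp1 and Itgb3. At an unadjusted p under 0.05 were 3 of the 9 and 2409 of the 13415 genes tested.

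Ordered by group mean, liver Spp1 was 327 ± 262 CPM in WT males on NASH, 80.5 ± 18.5 in WT females on NASH, 37.6 ± 19.7 in KI males on NASH, 36.2 ± 14.8 in KI females on NASH, 27.3 ± 4.35 in WT females on control, 26.1 ± 10.1 in KI females on control, 25.2 ± 3.14 in WT males on control and 22.4 ± 5.91 in KI males on control (SD). The first step had no overlap. Every later neighbour in this order overlapped with the next.

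Among the receptors in liver of WT males, Cd44, Itgb5, Itga4 and Itga9 rose with the NASH diet beside Spp1. This made 5 of the 9 genes higher and none lower, where 21% of all genes passed, with a median log2 fold change of 0.56 over the 9 and -0.01 over all genes. Of the same comparison in KI males, edgeR called 0 of the 9 genes and 0% of all genes, with 847 at an unadjusted p under 0.05, Cd44 among them. DESeq2 called 0 of the 9 and 44 of all genes.

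Cd44 was 42.5, 23.0, 24.7 and 25.5 CPM on NASH, against 8.66, 9.76 and 14.0 CPM on control, in WT male liver. The groups did not overlap, and the log2 fold change was 1.16 ± 0.21 (adjusted p = 0.00298). KI males on NASH had 11.3, 18.0, 14.2 and 23.0 CPM, all below the WT livers in CPM. The highest KI and the lowest WT liver nearly met at 22.97 and 23.04 CPM. Their TMM factors, 1.013 and 1.038, reverse that order, so the groups overlap on the scale tested. Cd44 was lower in KI by a log2 fold change of -0.63 ± 0.19 (adjusted p = 0.0176), a call lost when WT NASH replicate 1, KI NASH replicate 1 or KI NASH replicate 3 was left out, at -0.81 to -0.46 over all libraries left out.

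Itgb5 was 212, 123, 140 and 117 CPM on NASH, against 72.1, 71.5 and 108 CPM on control, in WT males, with no overlap (log2 fold change 0.56 ± 0.14, adjusted p = 0.0152). KI males on NASH had 84.2, 86.5, 88.0 and 92.2 CPM, a narrow range below all WT NASH livers, and Itgb5 was lower in KI by -0.57 ± 0.13 (adjusted p = 0.00435). The female minus male difference of this KI effect was 0.56 ± 0.18 (adjusted p = 0.0384), lost without any 1 of 8 libraries (male WT NASH replicate 1, male KI NASH replicates 1 to 3, female KI NASH replicates 2 and 3, female WT NASH replicates 3 and 4), under the replicate block (adjusted p = 0.0529) and with no filter (adjusted p = 0.058). Female livers on NASH had 69.0 to 89.2 CPM in KI, against 56.7 to 93.7 CPM in WT.

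Itga4, a chain of lymphoid and myeloid cells, was 13.1, 6.08, 8.19 and 6.38 CPM on NASH, against 2.10, 1.74 and 4.40 CPM on control, in WT males. The groups did not overlap (log2 fold change 1.38 ± 0.33, adjusted p = 0.0117). Itga9 was 47.6, 24.6, 37.7 and 32.0 CPM on NASH, against 16.6, 13.8 and 29.1 CPM on control, with overlap (log2 fold change 0.60 ± 0.19, adjusted p = 0.0346). The highest control value of Cd44, Itgb5, Itga4 and Itga9 was in each case replicate 3-4, the averaged library with the sex genes of a female. Without either of WT control replicates 1 and 2 the calls of Itgb5, Itga4 and Itga9 were lost, and that of Itga9 also without WT NASH replicate 1 or 3, whereas without replicate 3-4 all 5 genes passed. With the averaged versions kept apart Itga9 stood at 0.49 (adjusted p = 0.0559).

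In the comparison of KI with WT males on NASH 3 of the 9 genes were lower and none higher, Spp1, Cd44 and Itgb5, where 37% of all genes passed, so that the share of 33.3% was near the background. Between KI and WT males on the control diet edgeR called 0 of the 9 genes where 4.67% of all genes passed, and DESeq2 called 0. There 2 of the 9, Itgav and Itga4, had an unadjusted p under 0.05, as did 3013 of the 12988 genes tested.

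In female liver Itgb3 was the receptor gene that passed with edgeR. KI females had 7.64, 7.37, 7.81 and 6.14 CPM on NASH, against 22.5, 14.7, 14.0 and 15.4 CPM on control. The groups did not overlap and Itgb3 fell by 1.42 ± 0.33 on the log2 scale (adjusted p = 0.0179), a call lost without KI NASH replicate 2 or 4. In this comparison 1 of the 9 genes passed, where 8.83% of all genes did.

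WT females had 6.86, 8.24, 24.0 and 14.3 CPM of Itgb3 on NASH, against 7.42, 6.50, 4.92 and 6.11 CPM on control. Replicates 1 and 2 lay near the control livers and replicates 3 and 4 well above them (log2 fold change 1.10, adjusted p = 0.16). KI minus WT on the control diet was 1.56 ± 0.33 (adjusted p = 0.016), 1 of the 9 genes, where 7.57% of all genes passed. The diet effect in KI minus that in WT was -2.52 ± 0.47 (adjusted p = 0.013), the 1 gene of the 9 called, where 4.77% of all genes passed.

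The female livers high in Itgb3 were also high in Cdkn1a, a cell cycle inhibitor of the stress response, and, with an exception, in Igfbp1, a binding protein of insulin-like growth factors. Cdkn1a was 57.9 to 196 CPM in KI control livers and 72.6 and 62.6 CPM in WT NASH replicates 3 and 4, against 1.53 to 23.9 CPM in the other 10. Igfbp1 was 661 to 2390 CPM in KI control livers and 738 and 275 CPM in WT NASH replicates 3 and 4, against 11.3 to 251 CPM in 9 of the others and 945 CPM in WT control replicate 2, where Itgb3 was 6.50 CPM. Both genes were chosen after their values were seen. Itga2b was at 1.77 to 4.20 CPM in all 16 female livers. The part of what these genes track in the Itgb3 values was not tested. In male liver Itgb3 was 3.69 to 8.80 CPM in all 15 libraries and passed in no comparison.

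The female minus male difference of the KI effect on NASH was -1.40 ± 0.42 for Itgb3 (adjusted p = 0.0255), the call being lost without male KI NASH replicate 3 or female WT NASH replicate 3 and with library totals in place of TMM (-1.13, adjusted p = 0.0595). Itgb1, at 157 to 255 CPM, Itgav, at 20.2 to 47.4 CPM, and Itga5, at 13.3 to 46.5 CPM, passed with edgeR in none of the liver comparisons within a sex. With library totals in place of TMM, Itga5 was called in females for the KI diet effect (0.58, adjusted p = 0.0191), KI minus WT on control (-0.55, adjusted p = 0.033) and the interaction (0.79, adjusted p = 0.04), and Itgav in males for the WT diet effect (0.47, adjusted p = 0.0267). Itgav was also called in KI minus WT males on control with the duplicate versions kept apart (0.34, adjusted p = 0.0317).

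Itga9 in female liver separated in CPM without passing. WT females had 43.1, 61.0, 49.6 and 53.8 CPM on NASH, against 31.4, 38.4, 42.7 and 37.9 CPM on control (log2 fold change 0.44, adjusted p = 0.136). The TMM factors of the libraries at 43.1 and 42.7 CPM, 1.083 and 1.026, reverse their order, so these groups overlap on the scale tested. KI females on NASH had 39.1, 39.4, 34.9 and 34.0 CPM, all below the WT livers (log2 fold change -0.55, adjusted p = 0.125). DESeq2 called both differences (adjusted p = 0.0332 and 0.0066).

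**Figure D4:**
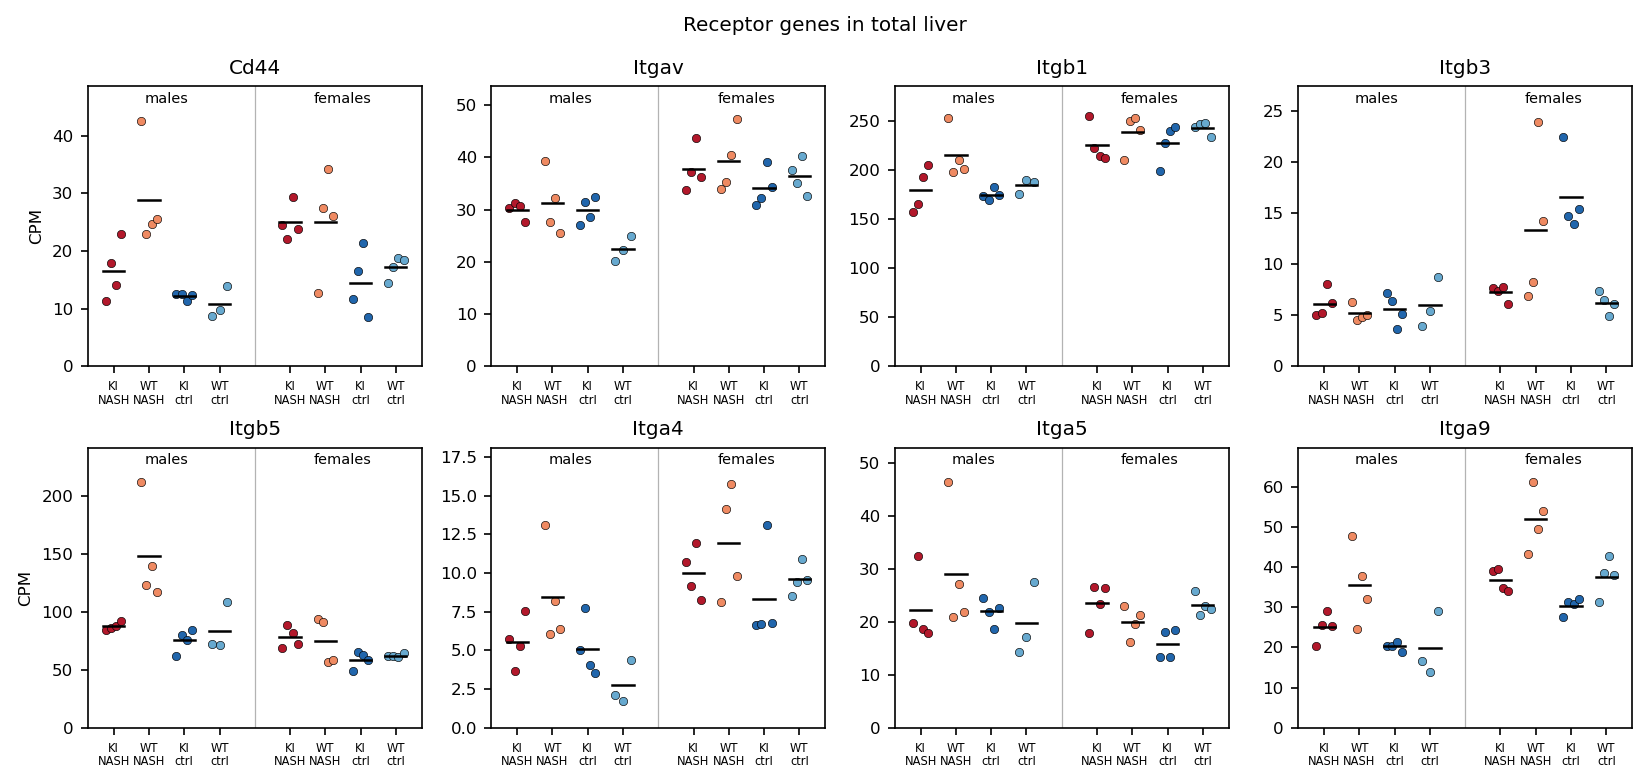
The 8 receptor genes in total liver, in CPM from 0, by sex, genotype and diet (ctrl, control diet); points are libraries, with male liver WT control replicates 3 and 4 averaged as 1, and lines are group means. Cd44 and Itgb5 are highest in WT males on the NASH diet, at up to 42.5 and 212 CPM, and Itgb3 is highest in KI females on control (14.0 to 22.5 CPM) and in WT NASH female replicates 3 and 4.

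**Figure D5:**
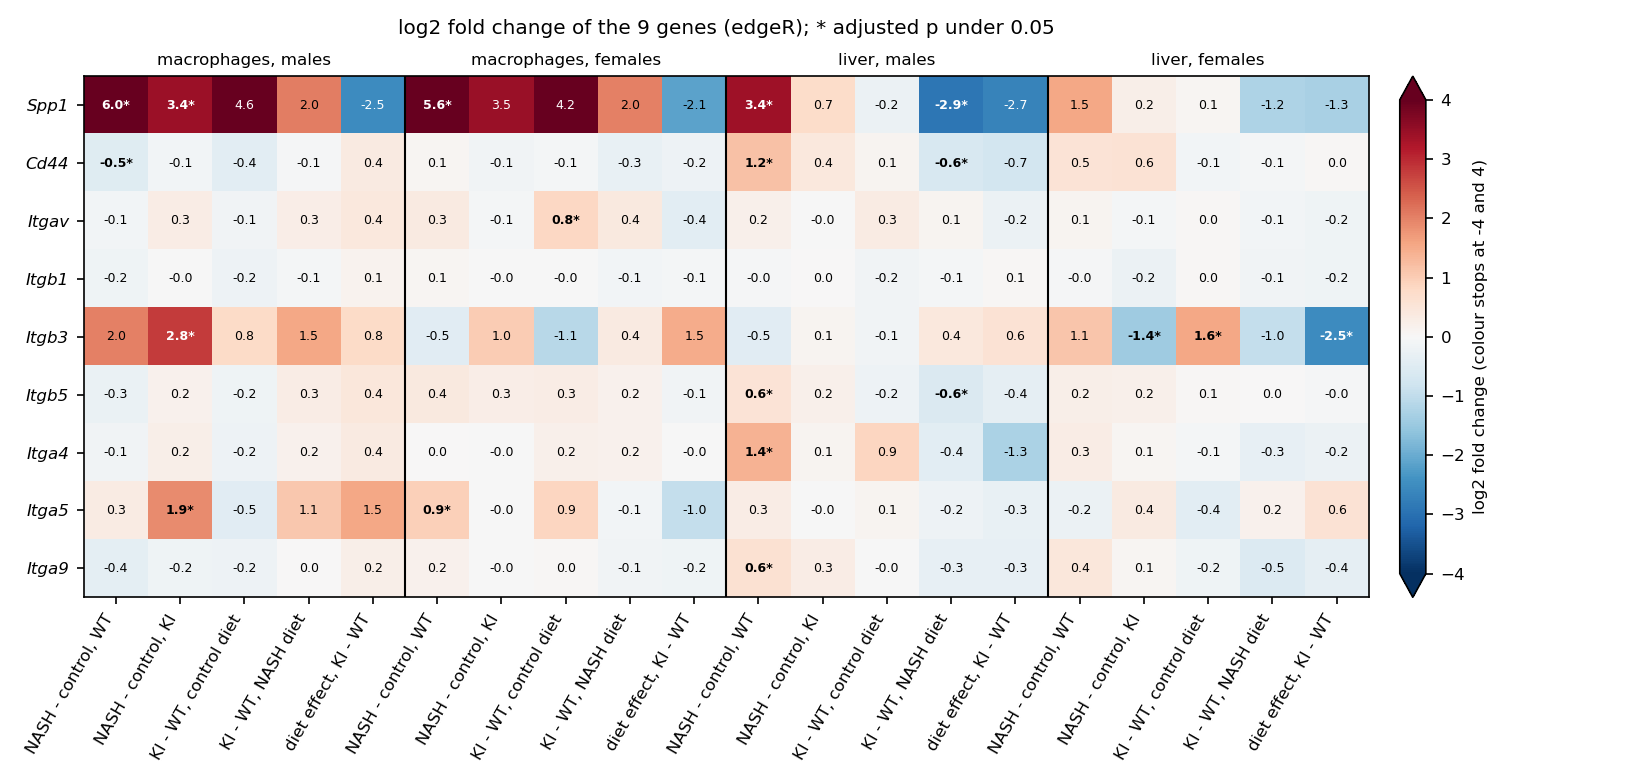
Log2 fold changes of the 9 genes (rows) in 20 comparisons (columns) within macrophages and liver of each sex, with an asterisk at an adjusted p under 0.05; colours stop at -4 and 4. Spp1 has 5 of the 19 calls. In the KI minus WT column on the NASH diet it is positive in macrophages (2.05 and 2.01) and negative in liver (-2.89 and -1.22), with only -2.89 called.

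Other ligands of the same receptors changed in male liver in the comparisons in which Spp1 did. Of 12 listed genes 9 were tested. In WT males on NASH against control 5 were higher (Mfge8, Tgfb1, Tnc, Postn and Emilin1) and 2 lower (Fn1 and Vtn), where 21% of all genes passed, with a median log2 fold change of 0.73. In KI against WT males on NASH 6 were lower and 2 higher, where 37% of all genes passed, with a median of -1.11, and in KI males on NASH against control 0 passed. Mfge8 (an RGD protein that bridges dying cells to alpha v integrins) averaged 12.0 CPM in KI and 89.3 CPM in WT males on NASH (log2 fold change -2.63, adjusted p = 0.00227). Fn1 (fibronectin, the alpha 5 beta 1 ligand, made in bulk by hepatocytes) averaged 3367 CPM in KI and 1367 CPM in WT (log2 fold change 1.46, adjusted p = 0.000134). In female liver the list had 1 call over the 5 comparisons, Vcam1 in the interaction, where 4.77% of all genes passed.

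In macrophages of KI males on NASH against control 6 of 9 tested ligands were higher and none lower, where 24% of all genes passed. Thbs1 (thrombospondin 1, which binds CD36 and integrins) averaged 148 CPM on NASH and 8.87 CPM on control, with overlap (log2 fold change 4.04, adjusted p = 0.00358). Fn1 and Vtn, also higher, are hepatocyte genes, and the 5 hepatocyte markers summed to 384 to 2271 CPM in those NASH libraries and 154 to 239 CPM in the control libraries. The part of hepatocyte RNA in them was not tested. Fn1 and Vtn were also higher in KI than in WT males on NASH, with log2 fold changes of 1.86 (adjusted p = 0.0341) and 2.54 (adjusted p = 0.0183).

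Of 8 listed enzymes that cleave, crosslink or phosphorylate osteopontin, 6 were tested within each tissue and sex. Mmp12, macrophage elastase, averaged 969 CPM on NASH and 25.6 CPM on control in KI male macrophages (log2 fold change 5.22, adjusted p = 0.00421), and 558 CPM on NASH and 15.7 CPM on control in WT female macrophages (log2 fold change 5.21, adjusted p = 0.000789). The list had 4, 5 and 2 members higher in macrophages of KI males, WT females and KI females on NASH against control, where 24%, 12.9% and 2.31% of all genes passed, and 0 in WT males, where 8.19% did. In liver Mmp12 averaged 1.12 CPM in KI and 32.4 CPM in WT males on NASH (log2 fold change -4.67, adjusted p = 6.76e-05).

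Of 14 adaptors and kinases that link integrins and CD44 to the cytoskeleton, 4 were higher and 0 lower in liver of WT males on NASH against control, and 3 were higher and 3 lower in KI against WT males on NASH, with a median log2 fold change of 0.15. With 21% and 37% of all genes called there, these shares were near the background. Src, the kinase that acts at integrin adhesions, averaged 3.30 CPM in KI and 13.9 CPM in WT males on NASH (log2 fold change -1.84, adjusted p = 0.00379). Vcl (vinculin) averaged 68.5 CPM in KI and 37.9 CPM in WT females on control (log2 fold change 0.99, adjusted p = 0.00559), in the livers where Itgb3 was high. Of 4 tested hyaluronan genes, Lyve1 rose in the same comparison, to 29.1 CPM in KI against 8.89 CPM in WT (log2 fold change 1.85, adjusted p = 0.00178). Of the 5 partner subunits, Itga8, the alpha chain of an RGD receptor of stellate cells, averaged 6.76 CPM in KI and 18.0 CPM in WT males on NASH (log2 fold change -1.17, adjusted p = 0.0458).

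Genes whose level ran most like Spp1 were ranked by Pearson correlation of log2 TMM-scaled CPM over all libraries of a tissue. In macrophages, over 38 libraries and 12694 genes, they included Cd93 (r = 0.905, rho = 0.885), Adam15 (r = 0.900), Mef2c (r = 0.886) and Nrp2 (r = 0.877). In liver, over 31 libraries and 12603 genes, they were Cd63 (r = 0.944, rho = 0.769), Anxa2 (r = 0.929), Tspan8 (r = 0.921), Fabp4 (r = 0.912) and Elovl7 (r = 0.911). Of the receptors, Itga5 came nearest in macrophages, with r = 0.643 and rank 734, and Itgb3 next with r = 0.529. Itgb5 came nearest in liver, with r = 0.626 and rank 710, then Cd44 with r = 0.582. Without the 2 libraries farthest from the median of Spp1 r was 0.524 for Itgb3 in macrophages, 0.891 for Cd93 in macrophages, 0.879 for Cd63 in liver, and 0.293 for Itgb5 and 0.490 for Cd44 in liver, so the likeness of Itgb5 in liver rests on those libraries. The points share sexes, diets, genotypes and libraries, and these values are a description.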

How the data were processed

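Libraries were made with a stranded poly(A) kit per the labels' protocols. The authors deposited raw counts per gene symbol in 3 tables (male liver, female liver, macrophages), on mm10 per the submitters' processing notes. No source used here names the aligner, counter, annotation or strand setting. Spp1 and Itga5, which overlap small genes on the same strand, and Cd44, Itgav, Itga4 and Itga9, which overlap genes on the other, may share reads. The 9 genes and the other lists were chosen with earlier results of these data known, and the 20 comparisons of a tissue and sex share groups.

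CPM are counts over the library total, without TMM scaling. Overlap of groups was read on CPM and can differ on the scale of the tests. Itgb1 in WT male liver, for instance, was higher in every NASH than in every control library, at a log2 fold change of -0.04. Tests used edgeR 4.0.16 in R 4.3.3: TMM, filterByExpr (min.count 10, min.total.count 15), quasi-likelihood fits with 1 mean per group, Benjamini-Hochberg over all genes tested, threshold 0.05. Each tissue and sex was fitted alone (5 comparisons), each tissue over both sexes (2) and each sex over both tissues (1), giving 26 comparisons. Fold changes are log2 from the fit, with SE. The labels do not say that libraries are separate mice, so p-values measure the spread between libraries. The script was tested on simulated data. Male liver WT control replicates 3 and 4 (mean chi-square per gene 0.0671 over genes with summed counts of 20 to 200, against 2.05 to 11.9 in the other pairs within groups) were averaged, leaving 69 libraries of 70. Alternatives were DESeq2 1.42.0, library totals, no filter, a replicate block, each library left out, both versions kept, and leaving out libraries with contradicting sex genes or low Lyz2. All 9 genes are named; from each tissue the 5 genes most like Spp1 (log2 CPM, prior count 2; 1 in macrophages is not reported here), and from the pathway lists the members with the largest rise or fall past the threshold, are named too; Thbs1, Fn1, Vtn, Cdkn1a and Igfbp1 were added after their values were seen.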

Additional observations from a re-analysis of the deposited data

Results flagged for a closer look

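Of 135 gene and group sets of 4 to 6 libraries, 7 held a library far from the others by Dixon's test at the 95% level, where chance flags about 1 in 20. In macrophages of KI females on NASH, replicate 5 had Spp1 at 102 CPM (next 12.8), Cd44 at 656 CPM (next 843) and Itgav at 387 CPM (next 283), and it had the fewest Kupffer cell markers of its group, 16790 CPM. In macrophages of WT males on NASH, replicate 4 had Itgb3 at 30.6 CPM (next 10.6). In liver, WT male NASH replicate 1 had Cd44 at 42.5 CPM (next 25.5), KI female control replicate 3 had Itga4 at 13.1 CPM (next 6.80) and KI male NASH replicate 2 had Itga5 at 32.5 CPM (next 19.9).

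Effects differed between groups by their own test 4 times, all in liver. Of all genes, 1.13% and 4.77% passed the interaction in male and female liver, and 0% and 0.288% in macrophages. The female minus male tests passed 1.68% (WT diet effect) and 14% (KI effect on NASH) in liver, and 0.0224% and 4.37% in macrophages. That all 4 fell in liver is therefore no result about these genes. The diet effect on Itgb3 differed between KI and WT females (-2.52, adjusted p = 0.013). The KI effect on NASH differed between females and males for Itgb3 (-1.40, adjusted p = 0.0255), Itgb5 (0.564, adjusted p = 0.0384) and Spp1 (1.64, adjusted p = 0.0381). No cause was tested.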

How the results depend on the processing

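No log2 fold change of the 9 genes that passed changed sign under any of the settings tried, and no setting changed a macrophage minus liver call. Lost calls of receptor genes stand with their results above, as do most gained ones. DESeq2 further called Itgb3 in the WT diet effect of male macrophages (2.01), Itgav in that of females (0.36) and Itga5 in the KI effect on control of females (0.85), and the duplicate versions kept apart called Itgb3 in the female minus male WT diet effect of liver (1.68). For Spp1, DESeq2 made further calls: in male liver the interaction (-2.66), in female liver the WT diet effect (1.55), the KI effect on NASH (-1.23) and the interaction (-1.32), over both sexes of liver the female minus male WT diet effect (-1.81), in male macrophages the KI effect on control (4.60) and on NASH (2.04), and in female macrophages the KI diet effect (3.49) and the KI effect on control (4.24). Keeping the duplicate versions apart called the male liver interaction (-2.69). Library totals (1.56) and no filter (1.56) called the WT diet effect in female liver. Without the low-Lyz2 libraries the WT diet effect in female macrophages was not called (9.78), the control group there being 1 library with 0 reads. The cause was not tested elsewhere.

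The replicate block called the KI effect on NASH in male macrophages (2.36) and on control in female macrophages (4.24, adjusted p = 0.0243), and lost the female minus male KI effect in liver (1.57, adjusted p = 0.0662). Correlations of same-numbered libraries of different groups within a tissue and sex ran from -0.36 to 0.56. Their medians were -0.038 to 0.047 over the fits, against -0.013 to -0.003 for other pairs. These values cannot settle whether the numbers pair libraries, and liver libraries were not set against macrophage libraries.

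With each library left out in turn, Spp1 ranged in male liver from -3.05 to -2.06 (interaction), in female liver from 1.44 to 1.72 (WT diet effect) and -1.60 to -0.99 (interaction), and between the sexes of liver from -2.03 to -1.22 (WT diet effect) and 1.07 to 2.05 (KI effect on NASH). Without male WT NASH replicate 4 the male liver interaction and the WT diet effect between the sexes were called. In female liver the WT diet effect was called without KI control replicate 4, KI NASH replicate 3 or WT NASH replicate 1. The interaction there was called without KI control replicate 2, KI NASH replicate 3 or WT NASH replicate 1. In macrophages it ranged from 1.62 to 2.55 (KI effect on NASH, males), 1.75 to 3.70 (KI diet effect, females) and 3.84 to 4.59 (KI effect on control, females). A group reduced to 2 libraries was taken to vary like the other groups.

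The number of all genes called moved by over 1.5 times, up in 18 and down in 0 of 26 comparisons with DESeq2, up in 2 and down in 9 of 24 with the replicate block, and up in 0 and down in 8 of 14 without the low-Lyz2 libraries. The female liver WT diet effect, for instance, had 7 calls with edgeR and 327 with DESeq2, and the female macrophage KI diet effect 297 without and 2 with the block. Library totals moved it up in 4 and down in 1, and no filter up in 1 and down in 4. Depth limits Spp1 in WT control macrophages, where 0 to 12 reads stand behind each value.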
